A study of Mus musculus with 32 samples.

Results

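The Bmal1 arm of the circadian clock is taken here as 5 genes, chosen by symbol: Arntl (which encodes BMAL1), Npas2, Clock, Nfil3 and Cry1. They are 5 of the 35275 genes of the count table, and all 5 were matched in both deposited tables. RNA was sequenced from whole lung of mice labelled C57B/6, in 32 libraries, 8 groups and 2 experiments. In the first experiment, without surgery, males and females had room air (3 libraries each) or cigarette smoke (5 each), with an exposure time of 5 months. In the second, all mice were female and all had cigarette smoke, for 3 months after sham surgery or ovariectomy (3 libraries each) or for 5 months after sham surgery or ovariectomy (5 each). The second experiment has no room air group, the experiments have no group in common, and nothing was tested between them. The labels give no hour of collection and do not say that each library is a separate mouse. P-values therefore measure only the spread between libraries.

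In the circadian clock, BMAL1 pairs with CLOCK, or with its paralog NPAS2, and the pair switches on genes that carry E-box sequences. Those genes include the Per and Cry repressors, the nuclear receptors REV-ERB alpha and beta (Nr1d1 and Nr1d2) and the PAR-bZIP factors Dbp, Tef and Hlf. REV-ERB and ROR proteins compete at ROR response elements (ROREs), through which the Bmal1 arm is repressed or activated. The arm and its targets therefore peak at opposite times of day in most mouse organs, lung included. Nfil3 encodes E4BP4, a repressor that competes with DBP, TEF and HLF at D-box sequences. Cry1 is a repressor of BMAL1 and CLOCK whose RNA peaks later than that of the Per genes.

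Arntl lies on chromosome 7 at 113207465 to 113314122 (GRCm38, plus strand), Npas2 on chromosome 1 at 39193731 to 39363234 (plus strand) and Clock on chromosome 5 at 76212177 to 76304548 (minus strand). Nfil3 lies on chromosome 13 at 52967209 to 52981073 and Cry1 on chromosome 10 at 85131702 to 85185054, both on the minus strand. All 5 are protein-coding. Npas2 overlaps 2 annotated genes, Gm20428 and Gm3617, 1 of them on the opposite strand, and whether counting used strand is not given in the sources used here.

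The start-site windows of the members, 250 bases before to 50 after each start, were searched on both strands in RefSeq sequence of GRCm38.p6. All 5 genes had at least 1 window, 8 in all. The stretches below are shown because they hold the clock elements found there; the capitals mark the matched element.
Arntl first site, chr7:113207494-113207521: tggtcggaaaGTAGGTTAgtggtgcgac
Arntl second site, chr7:113207530-113207557: aaggcagaaaGTAGGTCAgggacggagg
Nfil3 site, chr13:52981033-52981062 (minus strand): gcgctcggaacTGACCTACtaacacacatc
Cry1 sites, chr10:85185106-85185135 (minus strand): gaAACGTGaggtgccggtggtCACGTGggg

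The 2 Arntl sites and the Nfil3 site lie in annotated first-exon untranslated sequence of at least 1 transcript, and the Cry1 stretch lies upstream of the gene. The letters TAGGTCA (RORE) were found in 2 of the 5 genes, Arntl and Nfil3, and in 2.61% of all 32851 windows of this length. The 5 genes had 8 windows, so a count of genes is not the same measure as a share of windows. The Arntl second site holds it, and the Nfil3 site holds it on the strand opposite to the gene, so that the printed gene strand reads TGACCTA. The letters GTAGGTNA, which were chosen after the Arntl sites were seen and overlap the RORE, were in the same 2 genes and in 2.14% of windows, and take in the Arntl first site too. The starts of the 2 Arntl sites are 36 bases apart. The E-box letters CACGTG and the E'-box letters CACGTT were found in Cry1 alone of the 5 genes, and in 7.15% and 4.68% of all windows. The latter lies on the strand opposite to Cry1, so that the printed gene strand reads AACGTG. D-box letters (TTATGTAA or TTACGTAA), in 1.06% of windows, were in 0 of the 5. Among 11 genes of the opposite arm (Per1, Per2, Per3, Cry2, Nr1d1, Nr1d2, Dbp, Tef, Hlf, Ciart and Bhlhe41), 10 had a window. There the RORE letters were in 0 genes and the E-box letters in 4 (Per1, Tef, Ciart and Bhlhe41). The E'-box letters were in 2 (Cry2 and Nr1d1) and the D-box letters in 1 (Per3). A match is a run of letters and not a measured binding site.

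Library totals were 13790052 to 24497332 counts. The lung marker list (10 genes, among them Sftpc, Ager and Cldn5) summed to 43799 to 75885 CPM (counts scaled to the library total) over the libraries, which fits the tissue label. Liver transcripts stood apart in some libraries. Alb, which encodes albumin, was over 100 CPM in 7 libraries: male air library 1, female air library 2, libraries 2 and 3 of ovariectomy at 3 months, libraries 1 and 2 of sham at 5 months and library 5 of ovariectomy at 5 months. Results that rest on these libraries are also given without them. Levels within an experiment are given in TMM-scaled CPM. Levels compared between genes or experiments are in TPM, a value per transcript length.

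Across the 8 groups, Arntl was highest in the sham group at 3 months of smoke, at 31.8 ± 0.868 TPM (SD, n = 3), and lowest in female air, at 7.87 ± 2.76 TPM (SD, n = 3). Between them came male smoke at 28.0 TPM, sham at 5 months at 24.7, female smoke at 24.3, ovariectomy at 3 months at 14.7, ovariectomy at 5 months at 12.7 and male air at 12.4. The libraries of neighbouring groups in this order overlapped except at 2 steps: from the highest group to male smoke, and from female smoke to ovariectomy at 3 months. By their means, the 4 groups of unoperated or sham-operated mice in smoke came before the 2 air groups and the 2 ovariectomy groups. This order spans 2 experiments with no group in common, was not tested, and cannot tell a difference between groups from one between experiments. By library they were not wholly apart: the lowest sham library at 5 months was at 19.4 TPM, and the highest ovariectomy library at 3 months at 21.8 TPM.

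Npas2 ran from 10.97 ± 1.29 TPM (SD, n = 5) in male smoke to 2.94 ± 1.40 TPM (SD, n = 3) in female air, with every pair of neighbours overlapping. Clock varied least, from 30.7 ± 1.58 TPM (SD, n = 3) in sham at 3 months to 17.1 ± 4.59 TPM (SD, n = 3) in female air, again with every pair of neighbours overlapping. Nfil3 ran from 16.1 ± 0.343 TPM (SD, n = 3) in sham at 3 months to 5.67 ± 1.32 TPM (SD, n = 3) in ovariectomy at 3 months; on TMM-scaled CPM the mean of female smoke was the highest. Cry1 ran from 19.7 ± 3.14 TPM (SD, n = 5) in male smoke to 7.35 ± 1.04 TPM (SD, n = 5) in ovariectomy at 5 months. For Nfil3 and Cry1 too, every pair of neighbours overlapped. The lowest group mean was 24.7% of the highest for Arntl, 26.8% for Npas2, 35.2% for Nfil3, 37.3% for Cry1 and 55.7% for Clock. In lung homogenate, fewer cells that express a gene and less RNA per cell cannot be told apart.

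**Figure D1:**
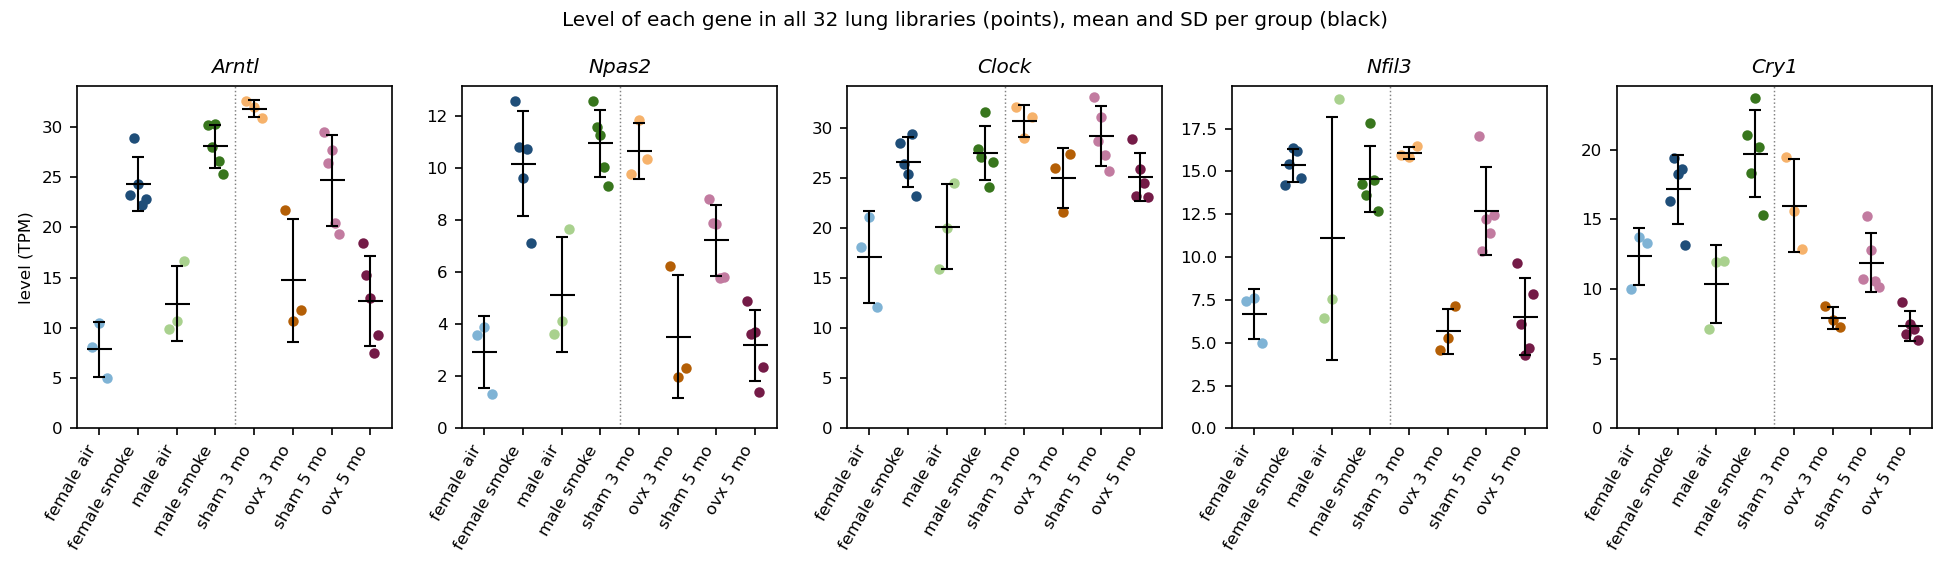
Levels of the 5 genes in TPM (y axis, from 0) in each of the 32 libraries (points), by group (x axis), with the group mean and SD in black; the dotted line separates the 2 experiments. Arntl in the 4 groups of unoperated or sham-operated mice in smoke averages 24.3 to 31.8 TPM, and 7.87 to 14.7 TPM in the air and ovariectomy groups. Nothing was tested between the experiments.

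The partners of BMAL1 did not vary in proportion. Npas2 was the lowest of the 5 genes in TPM in 31 of the 32 libraries, and Nfil3 was in the remaining 1. In female air libraries Npas2 stood at 11.1% to 19.8% of the Clock level, and in female smoke at 30.8% to 44.2%. In male air it stood at 20.6% to 31.3%, and in male smoke at 35.02% to 45.03%. It stood at 30.5% to 40.9% in sham at 3 months and at 8.49% to 24.1% after ovariectomy. At 5 months it stood at 21.2% to 27.4% in sham and 5.66% to 17.0% after ovariectomy. In each of these 4 pairs of groups the libraries did not overlap. The ratios given here and below were chosen after their values were seen and were not tested. How often other ratios of genes keep groups apart was not counted.

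The ratio of Arntl to Dbp in TPM sets the arm against a BMAL1 target. It was 0.0427 to 0.142 in female air and 1.14 to 3.84 in female smoke. It was 0.116 to 0.685 in male air and 2.22 to 5.06 in male smoke. At 3 months it was 1.64 to 5.53 in sham and 0.140 to 0.526 after ovariectomy, and at 5 months it was 0.419 to 1.92 in sham and 0.0897 to 0.401 after ovariectomy. The libraries of each pair of groups were apart on this ratio too, which was also chosen after its values were seen. Cry1 relative to its paralog Cry2 was 0.246 to 0.313 in female air and 0.370 to 0.545 in female smoke, and 0.185 to 0.340 in male air and 0.528 to 0.734 in male smoke. It was 0.348 to 0.487 in sham and 0.143 to 0.220 after ovariectomy at 3 months, and 0.218 to 0.329 and 0.146 to 0.236 at 5 months, where the groups overlapped.

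The first experiment asks what cigarette smoke does to lung RNA in each sex. In females, 4 of the 5 members were higher in smoke than in air: Arntl, Npas2, Clock and Nfil3. Of all 16361 genes tested, 4.52% were called higher (edgeR's quasi-likelihood test, Benjamini-Hochberg adjusted p under 0.05 over all genes). Cry1 had the smallest difference and did not pass. The same 4 had groups that did not overlap, a state reached in the higher direction by 8.04% of all genes. The median log2 fold change of the 5 was 1.16, beside -0.01 over all genes tested.

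Arntl, the required partner in the activating pair, was at 11.8, 13.7 and 7.52 CPM in the female air libraries and at 31.9, 40.2, 32.9, 29.7 and 32.6 CPM in the smoke libraries. Every smoke library was above every air library. The change was 1.60 on the log2 scale (SE 0.16), 3.02-fold, with an edgeR adjusted p of 2.59e-05. By p, Arntl ranked 2 among all genes of this comparison.

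Npas2, the alternative partner of BMAL1, was at 7.63, 7.44 and 2.94 CPM in female air and at 25.2, 21.9, 19.0, 20.9 and 14.9 CPM in female smoke. The groups did not overlap, and library 3 of the air group was the low one, as it was for Arntl. The change was 1.75 on the log2 scale (SE 0.27), 3.37-fold (edgeR adjusted p = 9.01e-04).

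Clock, the usual partner, was at 68.0, 71.1 and 46.95 CPM in female air and at 101, 94.5, 88.5, 101 and 85.3 CPM in female smoke. It was 1.51-fold higher, 0.60 on the log2 scale (SE 0.12, edgeR adjusted p = 0.00317). The smoke libraries all lay above the air libraries, of which library 3 was again the lowest.

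Nfil3, the D-box repressor, was at 7.53, 6.95 and 5.23 CPM in female air and at 13.6, 14.95, 15.4, 15.1 and 14.6 CPM in female smoke. It was 2.23-fold higher, 1.16 on the log2 scale (SE 0.24, edgeR adjusted p = 0.00464). The 5 smoke libraries lay close together.

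Cry1, the repressor, was at 15.1, 18.6 and 20.8 CPM in female air and at 23.3, 28.0, 25.6, 25.8 and 19.5 CPM in female smoke. Here 1 smoke library fell inside the air range. The difference was 0.43 on the log2 scale (SE 0.16) and did not pass (edgeR adjusted p = 0.105).

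In males, 4 of the 5 members were also higher in smoke: Arntl, Cry1, Npas2 and Clock. In this comparison 4.93% of all genes were called higher, and 8.61% had groups that did not overlap in that direction, as these 4 did. Nfil3 was the member that did not pass. The median log2 fold change of the 5 was 0.98, beside 0.01 over all genes tested.

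Arntl was at 14.2, 14.8 and 21.3 CPM in male air and at 40.9, 38.0, 40.9, 39.96 and 36.9 CPM in male smoke. The smoke libraries were close together and well above the air libraries. The change was 1.23 on the log2 scale (SE 0.16), 2.34-fold (edgeR adjusted p = 6.64e-05).

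Cry1 was at 10.7, 17.1 and 15.9 CPM in male air and at 29.7, 25.8, 33.3, 31.5 and 23.1 CPM in male smoke. It was 1.97-fold higher, 0.98 on the log2 scale (SE 0.16, edgeR adjusted p = 4.89e-04), with no overlap.

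Npas2 was at 7.62, 8.33 and 14.3 CPM in male air and at 24.9, 23.0, 22.3, 22.1 and 19.8 CPM in male smoke. It was 2.22-fold higher, 1.15 on the log2 scale (SE 0.26, edgeR adjusted p = 0.00963). Clock was at 59.5, 71.4 and 81.0 CPM in male air and at 97.7, 94.9, 110, 93.7 and 99.9 CPM in male smoke, 1.41-fold higher (edgeR adjusted p = 0.00970). Neither gene's groups overlapped.

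Nfil3 was at 6.51, 7.34 and 17.2 CPM in male air and at 13.5, 12.9, 16.8, 15.2 and 12.9 CPM in male smoke. Library 3 of the air group lay above all 5 smoke libraries, and the other 2 lay below them. The difference was 0.47 on the log2 scale (SE 0.23) and did not pass (edgeR adjusted p = 0.229). Without that library the difference was 1.04 (adjusted p = 0.00111), and 5 of 5 members were then called.

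Male air library 3 stood apart in other genes as well. Its Alas2 level, a gene of haem synthesis in red cell precursors, was 269 CPM, against 73.4 and 104 in the other male air libraries and 199 to 290 in male smoke. Its Dbp level was 19.2 CPM, against 75.7 and 58.2. Male air library 1 held 259 CPM of Alb, and without it 2 of 5 members were called in males, Arntl and Cry1. Npas2 then stood at 0.95 on the log2 scale (edgeR adjusted p = 0.0542) and Clock at 0.35 (adjusted p = 0.0861). Npas2 was also lost without male air library 2 (adjusted p = 0.0608), which left 3 members called.

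Other marker lists moved with smoke. All 6 erythroid genes were called higher in females and 0 of 6 in males, where their summed level was 3653 to 11049 CPM in air and 8608 to 11248 CPM in smoke. In females it was 2144 to 3047 CPM in air and 5927 to 13895 CPM in smoke. Of 4 neutrophil genes, 2 were called higher in each sex, S100a8 and S100a9, and of 7 mitochondrially encoded genes 3 were called higher in females and 4 in males. Neutrophil genes summed to 28.1 to 46.0 CPM in female air and 51.7 to 95.2 CPM in female smoke, and to 32.9 to 50.2 and 63.6 to 99.1 CPM in males. Of 5 glucocorticoid target genes, 4 were called lower in each sex, Zbtb16, Fkbp5, Tsc22d3 and Per1. Of these, Per1 is also in the opposite arm, and Tsc22d3 is also among the cycling outputs counted further below. The 5 target genes summed to 599 to 745 CPM in female air and 299 to 534 CPM in female smoke, and to 549 to 743 and 300 to 341 CPM in males. Immediate early genes, listed as a mark of handling, summed to 585 to 1184.5 CPM in male air and 426 to 576 CPM in male smoke. In females they summed to 446 to 758 and 348 to 774 CPM, and 1 of 7 was called lower in each sex. Plasma cell genes summed to 543 to 579 CPM in male air and 638 to 704 CPM in male smoke. In females they summed to 566 to 663 and 643 to 878 CPM, and 1 of 4 tested was called higher in each sex. Of 7 liver genes, 6 were called lower in male smoke and 0 in female smoke. Their part in the result was not tested, other than by leaving out the libraries over 100 CPM of Alb, after which 4 of 5 members were called in females and 2 of 5 in males.

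**Figure D2:**
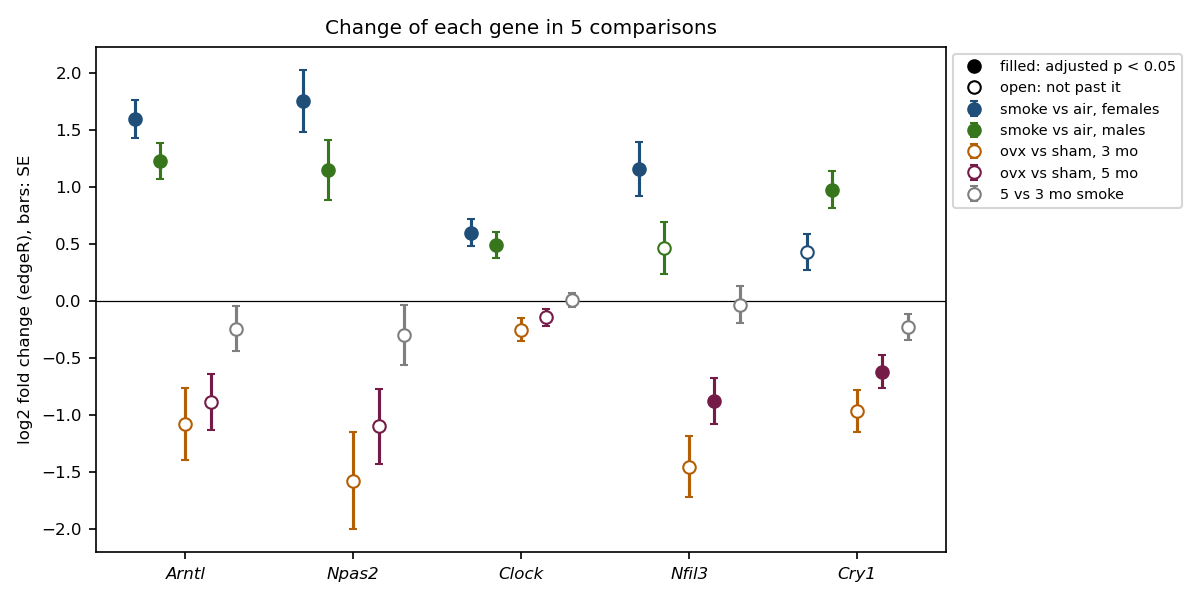
Log2 fold change (y axis) of each of the 5 genes (x axis) in 5 comparisons, with bars of 1 SE; filled points passed an edgeR adjusted p of 0.05. The smoke comparisons lie above 0, from 0.43 to 1.75, and the ovariectomy comparisons below 0, from -0.14 to -1.58.

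The sex difference in the response to smoke was tested as an interaction, and 0 of the 5 members were called by edgeR, where 0.00611% of all genes were. At an unadjusted p under 0.05 there were 2 members, Cry1 at rank 423 by p and Nfil3 at rank 804 among all genes. Cry1 differed by 0.55 on the log2 scale (SE 0.22, adjusted p = 0.822), towards a larger change in males. Nfil3 differed by -0.69 (SE 0.32, adjusted p = 0.854), towards a larger change in females, and this value was -0.12 without male air library 3. Without the libraries over 100 CPM of Alb, 4 members had an unadjusted p under 0.05 and 0 were called, with 1 gene called in all. The share of all genes at that unadjusted p was not counted. Male air library 1 and female air library 2 are left out there, so male air library 3 weighs more in its group. The values were then -0.69 for Arntl, -0.97 for Npas2, -0.35 for Clock and -1.004 for Nfil3 (edgeR adjusted p from 0.312 to 0.506), and 0.33 for Cry1. DESeq2 and limma also called 0 members.

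Between the sexes in smoke, 0 of 5 members were called by edgeR, 0 had an unadjusted p under 0.05, and 0.189% of all genes were called. The member differences ran from -0.04 to 0.23 on the log2 scale. In air, 0 of 5 were called as well, beside 0.177% of all genes, and 3 members had an unadjusted p under 0.05. By p these ranked 193 (Arntl), 777 (Nfil3) and 826 (Npas2) among all genes. Arntl was at 14.2 to 21.3 CPM in male air and 7.52 to 13.7 CPM in female air, ranges that did not overlap, with a difference of 0.60 (SE 0.18, edgeR adjusted p = 0.243). Without the libraries over 100 CPM of Alb it was 0.91 (adjusted p = 0.0703), and without male air library 3 it was 0.39 (adjusted p = 0.637). Clock differed by 0.19, and by 0.42 (adjusted p = 0.223) without the Alb libraries; 0 members were called in either case. In air, 7.73% of all genes had male libraries wholly above female ones. DESeq2 and limma called 0 members in both comparisons.

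The second experiment asks what ovariectomy, the removal of the ovaries, does to lung RNA in females in smoke. At 3 months the levels of all 5 members were lower after ovariectomy than after sham surgery, and the groups did not overlap for 5 of 5. That state was reached in the lower direction by 7.72% of all genes. None was called by edgeR, which called 0% of the 16874 genes tested. At an unadjusted p under 0.05 there were 5 of 5 members, of which Clock came last by p, at rank 706 among all genes. The DESeq2 Wald test, which called more genes in all than edgeR, called 2 members, Nfil3 and Cry1, and limma called 0. The median log2 difference of the 5 was -1.08, beside 0.00 over all genes tested.

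Nfil3 was at 14.6, 14.3 and 14.97 CPM in sham and at 4.20, 5.11 and 6.68 CPM after ovariectomy. The sham libraries were nearly equal and far above the others. The difference was -1.45 on the log2 scale (SE 0.26), 2.74-fold lower, with an edgeR adjusted p of 0.0639. By p it ranked 3 among all genes. Cry1, which ranked 4, was at 26.5, 21.0 and 17.3 CPM in sham and at 11.97, 11.2 and 10.1 CPM after ovariectomy. Its difference was -0.96 (SE 0.19, edgeR adjusted p = 0.0968).

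Arntl was at 42.6, 41.5 and 40.2 CPM in sham and at 28.5, 14.9 and 15.8 CPM after ovariectomy. Library 1 of the ovariectomy group lay between the sham libraries and the other 2. The difference was -1.08 (SE 0.32, edgeR adjusted p = 0.321). Npas2 was at 18.7, 22.5 and 19.6 CPM in sham and at 11.97, 4.04 and 4.54 CPM after ovariectomy, with the same library in between. Its difference was -1.58 (SE 0.43, edgeR adjusted p = 0.266), and without that library it was -2.24 with an adjusted p of 0.0406. Clock was at 108, 96.9 and 104 CPM in sham and at 87.8, 77.4 and 94.5 CPM after ovariectomy, a difference of -0.25 (SE 0.10, edgeR adjusted p = 0.433).

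The liver list moved with these groups. It summed to 1.62 to 2.81 CPM in sham, with Fgb, Serpina1a and Ttr at 0, and to 3.10, 691 and 1567 CPM in ovariectomy libraries 1, 2 and 3. Libraries 2 and 3 are those with the lower Arntl and Npas2. Without them 1 ovariectomy library was left, which is assumed to vary like the other groups, and 0 members were called. The differences were then -1.80 for Nfil3, -0.85 for Cry1, -0.76 for Npas2, -0.54 for Arntl and -0.23 for Clock. The macrophage and mitochondrially encoded lists were apart between these groups as well, and the remaining marker lists overlapped. Macrophage genes summed to 439.8 to 969.5 CPM in sham and 369.8 to 417.4 CPM after ovariectomy, and mitochondrially encoded genes to 16575 to 17765 and 17981 to 19426 CPM. Of single genes, 7.5% were wholly higher and 7.72% wholly lower after ovariectomy. In the macrophage and mitochondrially encoded lists 0 genes were called, and the part of these lists in the result was not tested.

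At 5 months of smoke, Nfil3 and Cry1 were lower after ovariectomy, 2 of the 5 members. In this comparison 0.776% of all genes were called lower. The groups of Nfil3, Cry1 and Npas2 did not overlap, a state that 1.93% of all genes reached in the lower direction. The median log2 difference of the 5 was -0.88, beside -0.01 over all genes tested.

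Nfil3 was at 15.8, 9.86, 11.1, 10.5 and 11.5 CPM in sham and at 9.47, 5.93, 4.12, 4.55 and 7.71 CPM after ovariectomy. The lowest sham library lay just above the highest ovariectomy library. It was 1.84-fold lower, -0.88 on the log2 scale (SE 0.20, edgeR adjusted p = 0.0314). Cry1 was at 14.7, 21.5, 17.2, 14.5 and 14.0 CPM in sham and at 13.2, 9.81, 10.7, 10.2 and 9.21 CPM after ovariectomy. It was 1.54-fold lower, -0.62 on the log2 scale (SE 0.14, edgeR adjusted p = 0.0334).

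Arntl was at 39.0, 36.0, 35.9, 26.98 and 25.7 CPM in sham and at 25.96, 21.3, 17.9, 10.4 and 13.01 CPM after ovariectomy. The groups overlapped by 1 library, and the difference of -0.88 (SE 0.25) did not pass (edgeR adjusted p = 0.106). Npas2 was at 17.0, 15.7, 14.8, 11.1 and 11.3 CPM in sham and at 10.1, 7.36, 7.47, 2.80 and 4.82 CPM after ovariectomy, a difference of -1.10 (SE 0.33, edgeR adjusted p = 0.122). Clock was at 88.2 to 113 CPM, median 101, in sham and at 83.3 to 105 CPM, median 87.4, after ovariectomy, a difference of -0.14 (SE 0.08, adjusted p = 0.381). DESeq2 called 4 of the 5, all but Clock, and also called more genes in all than edgeR did.

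The calls for Nfil3 and Cry1 lie near the threshold. Nfil3 was no longer called without sham library 1, 3 or 5 or ovariectomy library 3 or 4 (edgeR adjusted p up to 0.112), and Cry1 without sham library 1, 2 or 3 or ovariectomy library 2, 3, 4 or 5 (up to 0.0729). Without the 3 libraries over 100 CPM of Alb, 0 members were called, with Nfil3 at -0.87 (adjusted p = 0.0671) and Cry1 at -0.47 (adjusted p = 0.189). The nuclear RNAs Malat1 and Neat1 summed to 4525 to 6893 CPM in sham and 2398 to 3761 CPM after ovariectomy, with 0 of 2 called. Of 7 mitochondrially encoded genes, 1 was called higher, mt-Co1. The lung list summed to 47721 to 53932 CPM in sham and 54111 to 58053 CPM after ovariectomy, with 0 of 10 called. The part of these lists in the result was not tested.

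The surgery difference at 5 months was set against that at 3 months as an interaction. By edgeR, 0 of 5 members were called, as were 0% of all genes, and 0 members had an unadjusted p under 0.05. The member values ran from 0.11 for Clock to 0.57 for Nfil3 (SE 0.33, adjusted p = 0.938). Between 5 and 3 months of smoke, adjusted for surgery, 0 of 5 members were called, beside 0.13% of all genes, and 0 had an unadjusted p under 0.05. Those values ran from -0.30 for Npas2 (SE 0.27) to 0.01 for Clock (SE 0.06). Without the libraries over 100 CPM of Alb they were -0.74 for Npas2, -0.54 for Arntl and -0.31 for Cry1. Of ovariectomy at 3 months only library 1 was then left, which had the highest Arntl and Npas2 of that group. These values are therefore no result about the members. With all libraries, DESeq2 and limma also called 0 members in both comparisons.

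The opposite arm, the 11 genes named above, was read beside the members. In females 9 of 11 were called lower in smoke, where 3.18% of all genes were, and in males 8 of 11, where 5.33% were. The median log2 change was -0.93 in females and -1.14 in males. Dbp, a D-box activator, fell by 2.78 on the log2 scale (SE 0.40, edgeR adjusted p = 0.00147) in females and by 2.98 (SE 0.42, adjusted p = 7.81e-04) in males. Nr1d2, which encodes REV-ERB beta, fell by 1.36 (SE 0.18, adjusted p = 4.87e-04) in females and by 1.44 (SE 0.18, adjusted p = 2.29e-04) in males. Cry2 was called lower in females (-0.35) and not in males (-0.18).

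After ovariectomy at 3 months, 0 of these 11 genes were called by edgeR, 7 had an unadjusted p under 0.05, and 7 had ovariectomy libraries wholly above sham, as 7.5% of all genes did. The share of all genes at that unadjusted p was not counted. Nr1d2 had a difference of 1.37 (SE 0.20, adjusted p = 0.0639) and Dbp one of 2.45 (SE 0.50, adjusted p = 0.224). The list did not move as a whole: its differences ran from -0.44 to 2.45, with a median of 0.66. At 5 months 2 of 11 were called higher, Tef (0.51, SE 0.10, adjusted p = 0.0218) and Hlf (0.40, SE 0.10, adjusted p = 0.0404), where 0.587% of all genes were. Per1 and Per2, the early repressors, were at 0.49 and 0.46 and did not pass. At this time the differences of the list ran from -0.50 to 1.13, with a median of 0.46.

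**Figure D3:**
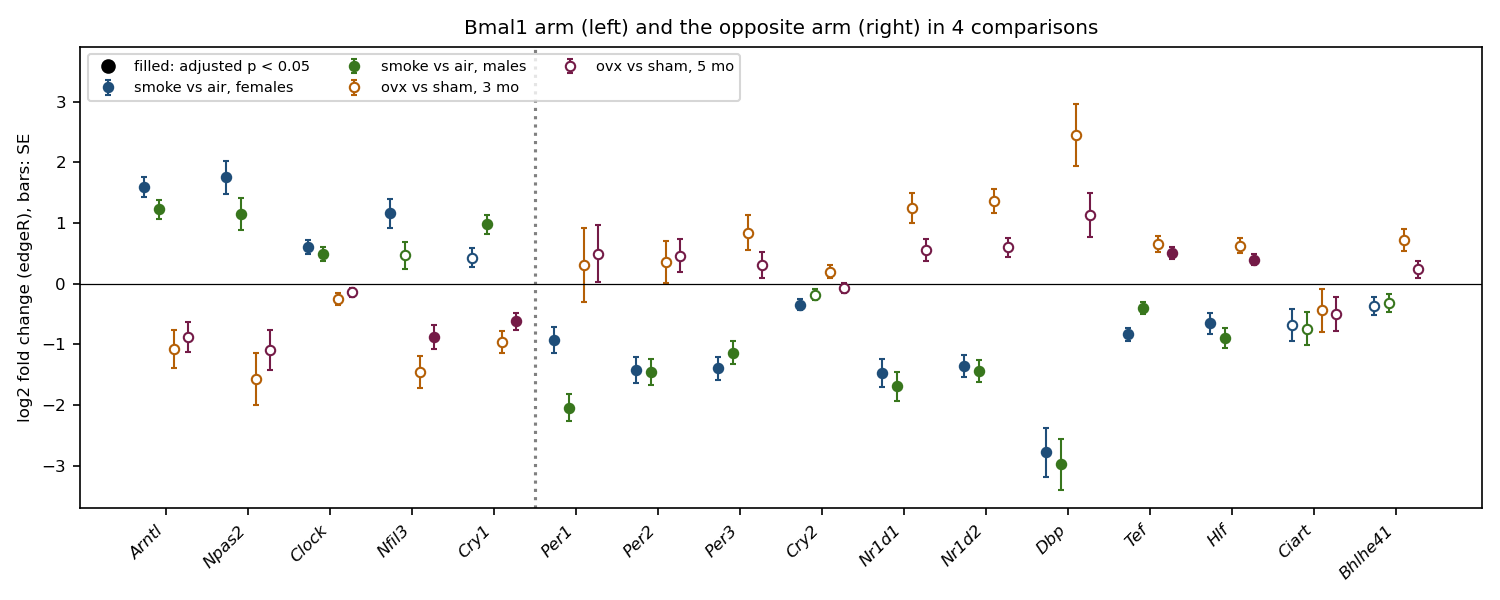
Log2 fold change (y axis, bars of 1 SE) of the 5 members (left of the dotted line) and 11 genes of the opposite arm (right) in 4 comparisons; filled points passed an edgeR adjusted p of 0.05. In smoke the members lie above 0 and the opposite arm below it, down to -2.98 for Dbp. After ovariectomy the 5 members lie below 0 at both times, and genes of the opposite arm lie on both sides of 0.

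The remaining clock genes were counted in 3 lists. Of the further activators and paralogs, Bhlhe40, a repressor at E-boxes, was called lower in females (-0.93, SE 0.13, edgeR adjusted p = 2.21e-04) and males (-0.69, SE 0.13, adjusted p = 0.00165). In males Timeless was called lower (-0.55). Of 13 genes of clock protein turnover and modification, 1 was called lower in each sex, the casein kinase gene Csnk1e in females (-0.40) and Csnk1d in males (-0.25). Beside the 3.18% and 5.33% of all genes called lower, that is no result about this list. Of 4 outputs that cycle in most mouse organs, 3 were called lower in both sexes, Tspan4, Wee1 and Tsc22d3. After ovariectomy 0 genes of these 3 lists were called by edgeR at either time.

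Libraries of the same group also differed in their clock genes. The SD within groups was 0.33 on the log2 scale for Arntl and 0.49 for Npas2. These lay at percentiles 96.6 and 96.0 of genes at a similar level. For Clock, Nfil3 and Cry1 the percentiles were 82.4, 84.2 and 79.2. Over all 32 libraries, Npas2 was the gene most like Arntl among 13408 genes, with a Pearson r of log2 CPM of 0.93, and r was 0.92 after each group's mean was subtracted. For Clock r was 0.81 and 0.59, for Nfil3 0.77 and 0.39, and for Cry1 0.62 and 0.33. These libraries share groups and experiments, so the values are descriptions.

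Outside the members, the genes most like Arntl were Glipr2 (0.89), Ikzf4 (0.86), Dtx4 (0.85), Spon2 (0.84), Ppp1r3c (0.82) and Trim3 (0.82). The most opposite were Tspan4 (-0.91), Dbp (-0.90), Tef (-0.89), Nr1d1 (-0.86), Ppp1r1b (-0.84) and Wee1 (-0.84). Of these 6, Dbp, Tef and Nr1d1 are genes of the opposite arm, and Tspan4 and Wee1 are listed cycling outputs. With group means subtracted, the highest were Glipr2 (0.74), Rufy3 (0.70), Prkab2 (0.68) and Cpa3 (0.66), and the lowest Tef (-0.77), Dusp23 (-0.75), Tmem184a (-0.72) and Fgfr1 (-0.71).

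**Figure D4:**
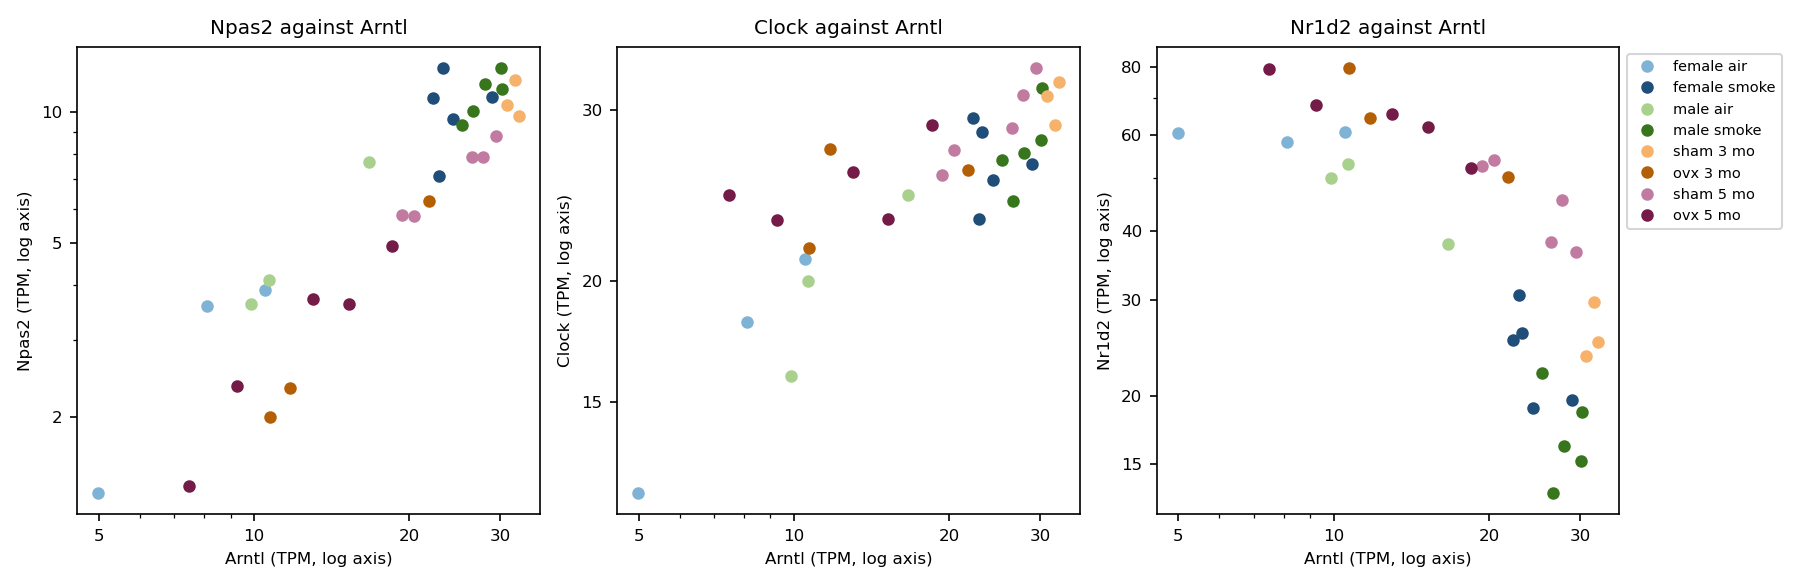
Npas2, Clock and Nr1d2 (y axes, TPM, log scale) against Arntl (x axes, TPM, log scale) in the 32 libraries, coloured by group. Npas2 follows Arntl across groups and within them (r = 0.93 and, with group means subtracted, 0.92, on log2 CPM), Clock has a narrower range, and Nr1d2 runs the opposite way.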

How the data were processed

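Raw counts per gene and a table of normalized values were deposited by the authors for 32 mouse lung libraries. Libraries were made from polyA RNA, per the labels. The submitters' processing notes name FastQC and the builds GRCm38 and mm10; for the aligner, counter and strand setting: not given in the sources used here. The deposited normalized values are TPM: they equalled counts over transcript length, scaled to the same library sum, for 100% of values within 1e-06. Of 35275 gene IDs, 97.8% were in the reference annotation.

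Counts were tested with edgeR 4.0.16 (R 4.3.3; filterByExpr, TMM, robust quasi-likelihood, 1 mean per group), separately in each experiment, with Benjamini-Hochberg adjustment over 16361 and 16874 genes. All 5 members passed the filter on low counts in both. Genes at an unadjusted p under 0.05 were counted in the lists only, so no share of all genes stands beside those counts. SE is the absolute log2 fold change over the square root of F. Alternatives were RLE factors, no filter, a strict filter (1 CPM in 3 libraries), a replicate block, DESeq2 1.42.0, limma 3.58.1 on log2(TPM + 1), leaving out libraries over 100 CPM of Alb and leaving out each library; the fit was also made over both experiments and over the compared groups alone. Likeness used log2 CPM (prior count 2; mean of at least 1). The edgeR fit was tested on simulated data.

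The members and gene lists were chosen with earlier results of these data known. All members are named in every comparison. Of each other clock list, up to 4 called genes with the smallest p may be named; further genes named, and the ratios, were chosen after their values were seen. Replicate libraries differed by more than sampling noise. A result of the list of further activators and paralogs is not reported here.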

Additional observations from a re-analysis of the deposited data

Results flagged for a closer look

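Within groups of 5, a library far from the other 4 was looked for in the members and the opposite arm, in 64 groups of values. Chance flags about 1 in 20, and 3 were flagged, which is near that share. Nfil3 in library 1 of sham at 5 months was at 15.8 CPM, with the others at 9.86 to 11.5. That library also held 586 CPM of Alb. Library 5 of male smoke was high in 2 targets of BMAL1, Per1 at 47.8 CPM (others 28.0 to 33.6) and Dbp at 10.2 CPM (others 4.98 to 6.13). Its Arntl level, 36.9 CPM, was the lowest of its group, with the next library close to it at 38.0 CPM.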

How the results depend on the processing

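The members called were 4 in females under all alternatives but the replicate block, which gave 5, and 4 to 4 when each library was left out. In males the count was 4, or 3 with limma, 2 without the libraries over 100 CPM of Alb, and 2 to 5 leaving out each library. For ovariectomy at 3 months it was 0, but 2 with no filter, 2 with all 32 libraries in 1 fit, 1 with only the groups compared, 2 with DESeq2 and 0 to 1 leaving out each library. At 5 months it was 2, but 4 with DESeq2, 3 with all 32 libraries in 1 fit, 1 with only the groups compared, 0 without the Alb libraries and 0 to 2 leaving out each library. DESeq2 called 93 genes in all at 3 months where edgeR called 0, and 602 at 5 months where edgeR called 230. For the other settings the count over all genes is not given here. A gain of the members there cannot be told from a test that calls more genes in general. The replicate block gave 4 members at each time, Arntl, Npas2, Nfil3 and Cry1, but same-numbered libraries of sham and ovariectomy correlated at only 0.0312 to 0.0386 at 3 months and -0.276 to 0.137 at 5 months. Correlations over all genes cannot decide whether the numbers mark a shared day or animal, and the labels do not say.

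Directions turned for some member differences that were not called. Without the Alb libraries, surgery by time was -0.11 for Arntl (0.19 with them) and -0.0781 for Npas2 (0.48), and 5 versus 3 months was -0.0257 for Clock (0.01) and 0.0619 for Nfil3 (-0.03); by limma it was -0.0330 for Clock. Leaving out 1 library turned 5 versus 3 months for Clock (-0.0318 to 0.0432), Npas2 (-0.433 to 0.0318, with all libraries -0.30, turned without library 1 of ovariectomy at 3 months) and Nfil3 (-0.130 to 0.0684), and sex by smoke for Clock (-0.239 to 0.0325). The causes were not tested. On TMM-scaled CPM in place of TPM no group moved by more than 1 place in the order of levels, and the highest group changed for Nfil3.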
